A study of Mus musculus with 8 samples.

Results

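The genes described here are 9 transcriptional effectors of Notch signalling, Hes1, Hes5, Hes6, Hey1, Hey2, Heyl, Rbpj, Nrarp and Maml2, chosen by name from the 41079 genes counted in the newborn mouse organ of Corti. All 9 were found in the count tables and all passed the filter on low counts, which left 20581 genes. Total RNA, depleted of ribosomal RNA, was sequenced from the organ of Corti, the cochlea's sensory epithelium, micro-dissected at P0, the day of birth. There were 4 wildtype libraries and 4 labelled as Prox1 knockout (Emx2-cre with floxed Prox1; here the labelled knockouts), in which Cre expressed from Emx2 is meant to delete Prox1, a homeobox transcription factor of supporting cells. Whether the wildtype mice carried either allele, and whether a library was made from 1 animal or from a pool, the labels do not say. The p-values therefore rest on the spread among 4 libraries a group, part or all of which may be technical.

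When a Notch receptor is cleaved, its intracellular domain enters the nucleus and binds the DNA-binding protein Rbpj, and Mastermind-like proteins such as Maml2 join this complex as coactivators. The complex switches on Hes and Hey genes, which encode basic helix-loop-helix repressors, and Nrarp, which encodes an ankyrin protein that feeds back on the complex. In the developing organ of Corti, hair cells present Notch ligands to their neighbours, and Hes and Hey proteins in those neighbours hold down Atoh1, the gene that specifies hair cells. Hey2 marks pillar cells, where its expression is known to depend on FGF signalling, and Hes6, unlike Hes1 and Hes5, is expressed in hair cells.

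Prox1 was higher in the labelled knockouts (138.8 ± 5.71 against 110.8 ± 4.29 CPM, SD, n = 4 per group; CPM are counts scaled to the library total times its TMM factor), which goes against the label, so every direction below refers to the libraries as labelled. The counts treat Prox1 as a whole gene, so loss of its floxed part cannot be read from them. Emx2, the Cre driver locus, had a mean of 16.2 ± 1.61 CPM in wildtype against 19.7 ± 2.39 CPM in the labelled knockouts. The libraries held between 29908965 and 42318233 counts. Markers of the labelled tissue were present, with 12 of 12 hair cell genes and 9 of 9 supporting cell genes passing the filter, and so were markers of mesenchyme and cartilage, which summed to between 13689.6 and 18166.6 CPM per library. The share of counts in noncoding RNA genes ran from 2.25 to 3.13% in wildtype and from 2.84 to 3.66% in the labelled knockouts. A stria score (mean log2 CPM over stria vascularis and melanocyte markers) ran from 3.21 to 4.60 and from 3.05 to 3.39. The 4 Y-linked genes listed all had higher means in the labelled knockouts, none of them called by edgeR (median log2 fold change 0.51), and their mean log2 CPM ran from 4.31 to 5.08 in wildtype and from 4.96 to 5.28 in the labelled knockouts. The sex of the animals is not given in the labels, and the part of this shift in the results was not tested beyond a fit with that score as a covariate.

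The RefSeq promoter table (build GRCm38.p6, while the authors used GRCm39) held entries for 6 of the 9 genes. Each entry was read from 250 bases before to 30 bases after an annotated start, and searched on both strands for GTGGGAA, a sequence that Rbpj binds. Hes5 and Hey2 each held this heptamer 2 times, 1 time on each strand, and their promoters are shown with that of Nrarp, in which it was not found, because these genes are read as outputs of the Notch complex. Capitals mark the heptamer or its reverse complement.

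Hes5 (chr4:154960673-154960952, plus strand): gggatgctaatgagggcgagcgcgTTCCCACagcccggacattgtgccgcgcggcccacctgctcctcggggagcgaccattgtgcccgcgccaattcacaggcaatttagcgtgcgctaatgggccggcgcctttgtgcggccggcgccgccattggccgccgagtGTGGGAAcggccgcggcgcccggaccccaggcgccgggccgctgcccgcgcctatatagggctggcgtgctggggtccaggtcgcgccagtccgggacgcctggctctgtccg
Hey2 (chr10:30842754-30843033, minus strand): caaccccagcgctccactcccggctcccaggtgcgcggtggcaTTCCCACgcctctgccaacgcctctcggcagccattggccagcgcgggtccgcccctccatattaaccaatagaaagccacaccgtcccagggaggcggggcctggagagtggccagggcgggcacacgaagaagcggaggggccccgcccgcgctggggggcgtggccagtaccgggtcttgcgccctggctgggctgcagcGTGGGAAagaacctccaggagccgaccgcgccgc
Nrarp (chr2:25180508-25180787, plus strand): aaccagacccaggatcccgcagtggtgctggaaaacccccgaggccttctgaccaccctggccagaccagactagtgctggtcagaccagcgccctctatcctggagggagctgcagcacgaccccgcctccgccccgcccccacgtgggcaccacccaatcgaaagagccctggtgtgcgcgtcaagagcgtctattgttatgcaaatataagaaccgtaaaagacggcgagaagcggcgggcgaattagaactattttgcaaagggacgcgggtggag

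In Hey2 the match on the gene's own strand spans the annotated start, from base -4 to base 3 counted from the start with no base 0, and the match on the other strand runs from base -207 to base -201. In Hes5 the matches lie from -83 to -77 on the gene's strand and from -226 to -220 on the other. The heptamer was present in 5.94% of the 32851 promoter windows of the table and present 2 or more times in 0.234%. It was not found in the windows of Hes6, Rbpj or Maml2. CACGTG, a sequence that several basic helix-loop-helix proteins bind, was found 1 time in Nrarp, from base -108 to base -103, and in none of the other 5 genes, against 6.79% of all windows. CACGCG was searched as well and was found in none of these genes, Nrarp included, against 8.65% of all windows. These are matches of letters, with no measurement of binding. Of the genes with the heptamer, Hey2 had a log2 fold change of 0.42 and Hes5 of -0.10 (labelled knockouts over wildtype, values below), and the difference between these values was not tested.

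Levels of different genes were compared per kilobase of exon. The Mastermind-like coactivator gene Maml2 had the highest level of the 9 in wildtype, 41.6 ± 6.11 CPM per kilobase (SD, n = 4). Hes5, the effector gene of supporting cells beside the hair cells, followed with 17.1 ± 1.33, Hey1 with 15.9 ± 0.70 and Hes6 with 15.9 ± 0.82 CPM per kilobase, and the library values of these 3 genes overlapped. Rbpj had 11.8 ± 0.83, the feedback gene Nrarp 11.7 ± 0.44 and Heyl 10.9 ± 0.57 CPM per kilobase. The values of Rbpj overlapped those of both other genes, as did those of Nrarp and Heyl. Hes1, an effector of the greater epithelial ridge and of supporting cells, stood below them at 8.12 ± 0.39, and Hey2 was the lowest in wildtype at 4.60 ± 0.21 CPM per kilobase. In the labelled knockouts Hey2 was again last, at 6.17 ± 0.50 CPM per kilobase, and Hes1 next to last at 8.30 ± 0.95. Several places depend on the length used. With the longest transcript of 5485 bases in place of the 12750 bases of all its exons, Rbpj had 27.5 CPM per kilobase, second to Maml2. By the longest transcript Hey1 (21.4) stood above Hes5 (18.3) and Heyl (12.3) above Nrarp (11.7), and Hey2 remained last at 8.28. The annotation used for lengths was GENCODE M21, and whether the counts include reads in introns is not given in the sources used here, which bears most on Maml2, a gene most of whose span is intron.

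**Figure D1:**
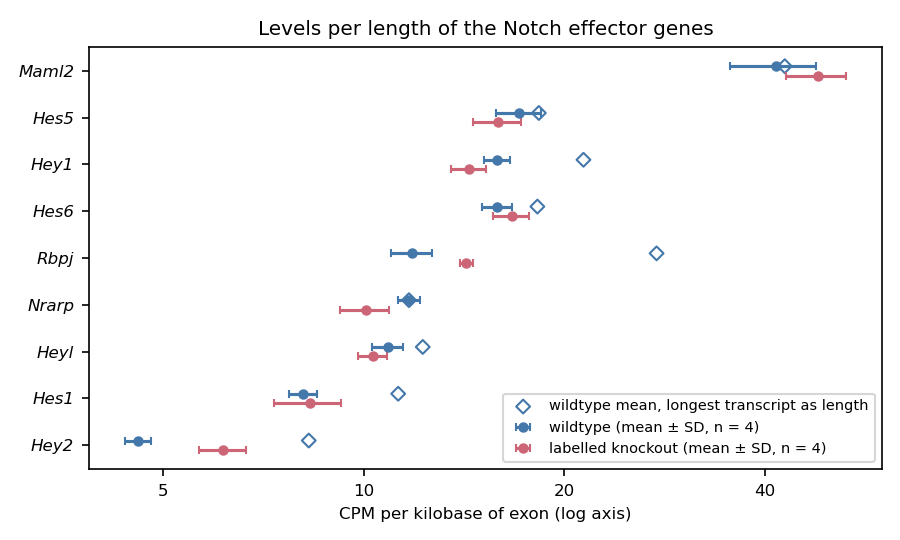
Level of each Notch effector gene in CPM per kilobase of exon (log axis), as mean ± SD of 4 libraries for wildtype (blue) and the labelled knockouts (red), with open diamonds for the wildtype mean per kilobase of the longest transcript. Maml2 stands highest at 41.6 and Hey2 lowest at 4.60 CPM per kilobase in wildtype, and Rbpj moves most with the choice of length.

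None of the 9 genes passed the test between groups, the quasi-likelihood test of edgeR at an adjusted p of 0.05 (Benjamini-Hochberg, over all 20581 genes), against 0.0923% of all genes tested. At an unadjusted p under 0.05 there were 4 members, Hey2 and Rbpj with higher and Nrarp and Hey1 with lower values in the labelled knockouts, against 7.55% of all genes. In the authors' deposited table, made with DESeq2, Hey2 and Rbpj were called, against 0.450% of the genes given an adjusted p there. The libraries of the 2 groups did not overlap for Hey2, Rbpj and Nrarp, as for 3.69% of all genes (2.07% with higher and 1.62% with lower values in the labelled knockouts). Hey2 and Rbpj were also apart with RLE factors, with upper quartile factors and on the library total alone, while Nrarp overlapped in the last 2 of these scalings. The median log2 fold change of the 9 genes was 0.03, with 5 above 0 and 4 below, and that of all tested genes was 0.00. In bulk RNA of this kind, fewer cells of a type and less RNA per cell cannot be told apart.

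**Figure D2:**
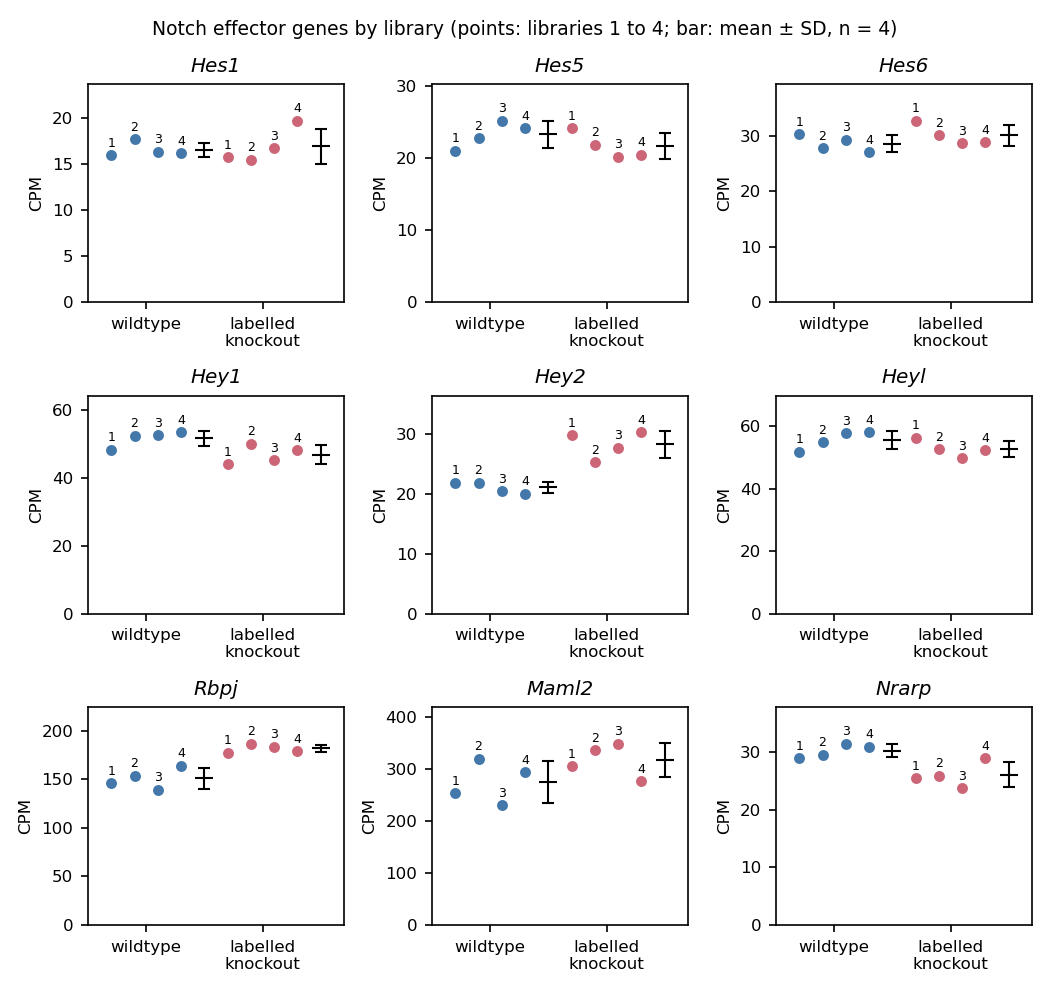
CPM of each Notch effector gene in each library (points, numbered by library; blue for wildtype, red for the labelled knockouts) with mean ± SD of 4 libraries (black bars); axes start at 0 and differ between panels. With the TMM scaling plotted, the groups are apart for Hey2, Rbpj and Nrarp and overlap for the other 6 genes; Nrarp overlaps on the library total alone and with upper quartile factors.

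Among the repressor genes of the Hey family, Hey2 had the widest gap between groups. Its values were 21.9, 21.9, 20.5 and 20.1 CPM in wildtype libraries 1 to 4 and 29.8, 25.3, 27.8 and 30.4 CPM in labelled knockouts 1 to 4. Each labelled knockout lay above each wildtype library, and the lowest of them was library 2. The log2 fold change was 0.42 ± 0.07 (SE); the 95% interval ran from 0.26 to 0.58, and the edgeR adjusted p of 0.0738 was just above the threshold. The authors' deposited table gave Hey2 a log2 fold change of 0.42 at adjusted p = 0.000698. With edgeR it passed without the filter on low counts (adjusted p = 0.0331) and among protein-coding genes alone (0.0283). Its log2 fold change stayed between 0.39 and 0.51 over all 20 alternative fits, and its adjusted p was 0.482 with the stria score and 0.998 with a score of Y-linked genes as a covariate. A list of 12 Deiters and pillar cell markers, Hey2 not among them, had 10 genes below 0 and a median log2 fold change of -0.13, with 1351 to 1499 CPM summed in wildtype and 1248 to 1408 CPM in the labelled knockouts. The part of such shifts in the result was not tested.

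Hey1, an effector gene expressed in supporting cells and in endothelium, had lower values with overlapping groups. Wildtype libraries 1 to 4 held 48.4, 52.5, 52.6 and 53.6 CPM, and labelled knockouts 1 to 4 44.1, 50.2, 45.2 and 48.3 CPM. Wildtype library 1 was the lowest of its group and reached into the range of the other. The log2 fold change was -0.14 ± 0.06 (SE, 95% interval -0.27 to -0.01, edgeR adjusted p = 0.647), and it became -0.22 once the stria score was a covariate. Heyl, which is known from supporting cells and from the mural cells of vessels, had 51.8 to 58.1 CPM in wildtype against 49.9 to 56.3 CPM in the labelled knockouts. Its groups overlapped over most of their range, and its log2 fold change was -0.08 ± 0.06, or -0.12 with the stria score. Of 12 endothelial markers 11 lay below 0, with a median of -0.16 and a summed level of 368 to 424 CPM in wildtype against 373 to 392 CPM in the labelled knockouts. Of 8 tested pericyte and smooth muscle markers 7 lay below 0, with a median of -0.10, and their part in the values of Hey1 and Heyl was not tested.

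Because a ratio of 2 genes in 1 library does not depend on how libraries are scaled, Hes and Hey genes were also set against each other within each library. The Hey2 to Hey1 ratio was 0.453, 0.417, 0.390 and 0.375 in wildtype libraries 1 to 4 and 0.676, 0.504, 0.614 and 0.628 in labelled knockouts 1 to 4. The 2 groups did not overlap, and the mean log2 ratio differed by 0.56 (two-sided exact permutation test, p = 0.0286, n = 4 per group; 4 against 4 allows none smaller). After Benjamini-Hochberg adjustment over the 6 pairs compared, this exact permutation p was 0.0857. The Hey2 to Heyl ratio gave the same picture, 0.381 ± 0.04 against 0.537 ± 0.04 (SD, n = 4 per group) with the same exact permutation p before and after adjustment. Hey2 was known to differ from earlier results of these data, so these values are no independent support for it. The Hey1 to Heyl ratio overlapped between groups (adjusted exact permutation p = 0.514). The summed level of the 3 Hey genes was 128.6 ± 4.36 CPM in wildtype against 128.1 ± 3.67 CPM in the labelled knockouts, and Hey2 made up 16.4 ± 1.23% and 22.1 ± 1.59% of it (SD, n = 4 per group).

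**Figure D3:**
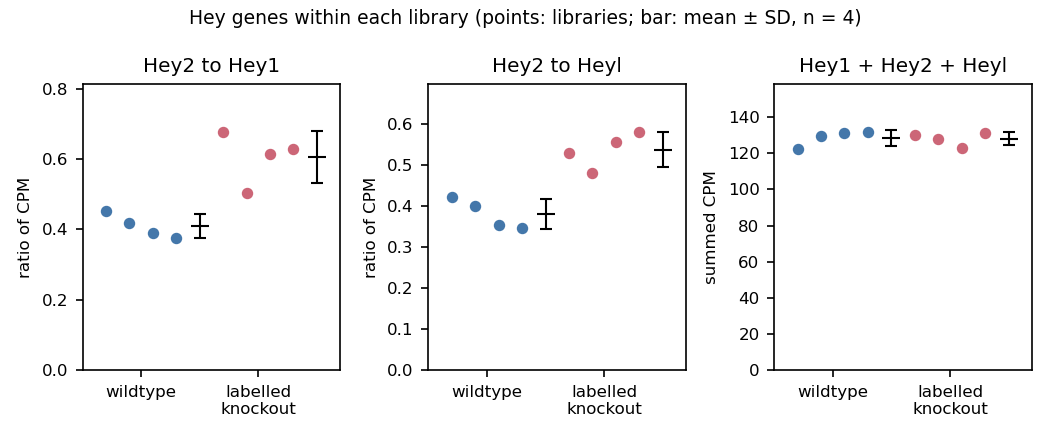
Ratio of Hey2 to Hey1 and of Hey2 to Heyl CPM in each library, and the summed CPM of the 3 Hey genes (points: libraries; black bars: mean ± SD of 4 libraries; all axes start at 0). Both ratios lie higher in each labelled knockout than in each wildtype library, from 0.504 against up to 0.453 for Hey2 to Hey1, while the sums of the 2 groups overlap.

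None of the 3 Hes genes passed the test, and their groups overlapped. Hes1 had 15.9, 17.7, 16.4 and 16.2 CPM in wildtype libraries 1 to 4 and 15.7, 15.5, 16.7 and 19.7 CPM in labelled knockouts 1 to 4, where library 4 alone lay above all wildtype libraries. Its log2 fold change of 0.03 ± 0.09 (SE, 95% interval -0.16 to 0.22) became -0.05 without that library. Hes5, which responds to Notch in the supporting cells around hair cells, had 21.1, 22.8, 25.2 and 24.2 CPM in wildtype against 24.2, 21.9, 20.2 and 20.5 CPM in the labelled knockouts, with groups that overlapped and a log2 fold change of -0.10 ± 0.08 (95% interval -0.28 to 0.07). It was -0.16 without labelled knockout 1, -0.06 without wildtype library 3 and -0.04 with the score of Y-linked genes as a covariate. Hes6, an antagonist of Hes1 that hair cells express, had 27.1 to 30.4 CPM in wildtype against 28.8 to 32.8 CPM in the labelled knockouts. Its log2 fold change was 0.07 ± 0.07 (95% interval -0.07 to 0.22). It was 0.03 without labelled knockout 1, 0.05 without wildtype library 4, 0.13 without wildtype libraries 1 and 3, 0.17 with the score of Y-linked genes and 0.19 with the stria score. The 95% intervals of all 3 Hes genes include 0. The summed level of the 3 Hes genes was 68.5 ± 1.66 CPM in wildtype against 68.8 ± 2.96 CPM in the labelled knockouts (SD, n = 4 per group). None of the 3 ratios between Hes genes passed, and the Hes5 to Hes6 log2 ratio had the widest difference, -0.18 (adjusted exact permutation p = 0.286). The 12 hair cell markers had a median log2 fold change of -0.03, and Atoh1, which Hes proteins repress, had 8.32 ± 0.90 CPM in wildtype against 9.45 ± 0.94 CPM in the labelled knockouts.

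Of the nuclear complex, Rbpj, its DNA-binding subunit, had 146, 154, 139 and 164 CPM in wildtype libraries 1 to 4 and 178, 187, 184 and 179 CPM in labelled knockouts 1 to 4. Each of the latter lay above wildtype library 4, the highest of its group. The log2 fold change was 0.27 ± 0.06 (SE, 95% interval 0.15 to 0.39) and the edgeR adjusted p was 0.188. In the authors' deposited table it was 0.26, with an adjusted p of 0.00966. The value was 0.15 with the stria score and 0.16 with the score of Y-linked genes as a covariate, and 0.19 without wildtype libraries 1 and 3. In the other alternative fits it lay between 0.21 and 0.31. In the annotation 2 antisense genes overlap Rbpj, Gm10441 with 11 and Gm40304 with 8 counts over all 8 libraries, few beside the 4761 or more counts of Rbpj in each library.

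Maml2, the coactivator, varied between the libraries of each group. It had 253, 320, 230 and 294 CPM in wildtype libraries 1 to 4 and 305, 336, 348 and 276 CPM in labelled knockouts 1 to 4. Wildtype libraries 1 and 3 were the low ones, and wildtype library 2 lay above labelled knockouts 1 and 4. The log2 fold change was 0.21 ± 0.10 (SE, 95% interval -0.01 to 0.43, edgeR adjusted p = 0.647). It was -0.04 with the share of noncoding RNA counts as a covariate, 0.01 with the stria score, 0.13 with the score of Y-linked genes, 0.13 without wildtype library 3 and 0.04 without wildtype libraries 1 and 3, the libraries of lowest and second lowest noncoding share (2.25 and 2.65%). Phxr4, which lies within Maml2 on the same strand, had 7.20 ± 2.06 and 10.1 ± 2.83 CPM (SD, n = 4 per group).

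Nrarp, the feedback inhibitor, was the member with the lowest log2 fold change. It had 29.0, 29.5, 31.4 and 30.9 CPM in wildtype libraries 1 to 4 and 25.4, 25.9, 23.7 and 28.9 CPM in labelled knockouts 1 to 4. Labelled knockout 4 lay just below wildtype library 1 (28.95 against 28.97 CPM), a narrow gap that the scaling decides: they stood apart with TMM and RLE factors, and the groups overlapped with upper quartile factors and on the library total alone (28.15 against 28.08 CPM). The log2 fold change was -0.22 ± 0.07 (SE, 95% interval -0.37 to -0.06) (edgeR adjusted p = 0.570), and it was -0.11 with the noncoding share as a covariate. Nrarp is expressed in endothelium as well as in epithelium. Of 12 endothelial markers 11 lay below 0, as did 12 of 12 mesenchyme and cartilage markers (median -0.13). The latter ran from -0.45 for Col1a1 to -8.0e-05 for Sox9, which is also among the supporting cell markers. In the epithelium, 9 of 9 greater epithelial ridge markers lay below 0 (median -0.14), from -0.27 for Itih5 to -0.0045 for Fgf10. Of 9 supporting cell markers, 7 lay above 0 and 2 below (median 0.02). The part of these cell types in the values of Nrarp was not tested.

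**Figure D4:**
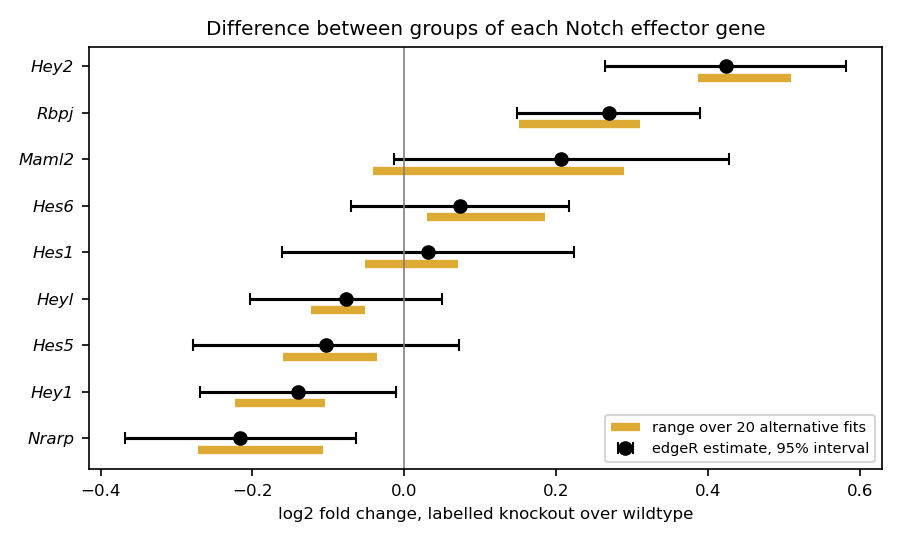
Log2 fold change of each Notch effector gene, labelled knockouts over wildtype (black points, with 95% intervals from edgeR), and the range of that value over the 20 alternative fits (yellow bars). Hey2, Rbpj and Hes6 lie above 0 and Nrarp, Hey1, Hes5 and Heyl below 0 in all of these fits, while the ranges of Maml2 and Hes1 cross 0. The 95% intervals of Hes5, Hes6 and Heyl include 0, and all fits draw on the same 8 libraries.

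Of the 9 genes, Hey2 and Maml2 had an SD of log2 CPM over the 8 libraries of at least 0.2, and the genes with the most similar profile were sought for them, by the root mean square difference of centred log2 CPM over the 8 libraries. For Hey2 these were the zinc finger gene Zmat4 (0.09), the metalloprotease gene Adamts19 (0.10) and Prox1 (0.10). Zmat4 had 18.5 CPM in wildtype against 24.0 CPM in the labelled knockouts on average (edgeR adjusted p = 0.324). Adamts19 had 38.4 and 46.8 CPM (edgeR adjusted p = 0.486). For Maml2 they were the splicing factor gene Prpf38b (0.03), the integrator subunit gene Ints6l (0.03) and the O-GlcNAc transferase gene Ogt (0.04), each with a log2 fold change between 0.18 and 0.25. The profiles hold the difference between groups, so a log2 fold change near that of the member follows from the selection. The genes next to Hey2 in the annotation, Ncoa7 and Hddc2, had log2 fold changes of 0.12 ± 0.07 and 0.00 ± 0.09. Those next to Rbpj were Smim20 at -0.20 ± 0.08 and Cckar at -0.08 ± 0.15, and those next to Nrarp were Gm13387 at 0.15 ± 0.14 and Tor4a at -0.14 ± 0.09.

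The rest of the pathway was taken from 6 fixed lists with 62 genes, all tested. None was called by edgeR after adjustment, and 3 had an unadjusted p under 0.05, against 7.55% of all genes. Of the 62 genes, 23 lay above 0 and 39 below, against 10291 and 10290 of all tested genes. Their median log2 fold change was -0.02. The receptor with the lowest p was Notch2, at 452 ± 44.5 CPM in wildtype against 406 ± 8.95 CPM in the labelled knockouts (SD, n = 4 per group), and all 4 receptors lay below 0. Of 8 ligands 4 lay above and 4 below 0, with the noncanonical ligand gene Dlk1 at 2.87 ± 0.59 and 1.84 ± 0.52 CPM. All 5 genes of Fringe enzymes and receptor glycosylation lay below 0, with Lfng at -0.13. Of 21 genes that process or route receptors and ligands 9 lay above 0 and 12 below, and Numb, an inhibitor of Notch, had 0.12. The coactivators stayed within -0.03 and 0.00, Maml1 at -0.02, Maml3 at 0.00 and Snw1 at -0.03. Of 17 corepressors 9 lay above 0, and Tle2, a Groucho corepressor that Hes and Hey proteins recruit, had 43.1 ± 6.20 CPM in wildtype against 53.3 ± 5.31 CPM in the labelled knockouts. A single gene of the 62, Fbxw7, whose product marks the Notch intracellular domain for breakdown, had groups that did not overlap, with higher values in the labelled knockouts, against 2.07% of all genes in that direction; on the library total alone its groups overlapped.

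Other lists bear on the same genes. Of 3 tested genes, the Hes-related Bhlhe40 and Bhlhe41 and the Rbpj paralog Rbpjl, none was called. Bhlhe40 had 13.7 ± 1.29 CPM in wildtype against 11.4 ± 1.44 CPM in the labelled knockouts. None of 8 tested genes of a list of proneural genes, Id genes, Tcf3, Tcf4 and Tcf12 was called, the median being 0.02. In a list of 13 cochlear genes that respond to Notch, 1 was called, Prox1 itself, and the median was 0.01. Lfng, Jag1, Notch3 and Dtx1 of this list are also in the pathway lists above. In 13 genes of FGF signalling, the pathway that acts on Hey2 in pillar cells, none was called and the median was 0.03. Fgf20, an FGF ligand gene, had the smallest p of this list (edgeR adjusted p = 0.172). Its level was low, 1.18 ± 0.15 CPM in wildtype against 2.16 ± 0.19 CPM in the labelled knockouts. Its groups did not overlap, with higher values in the labelled knockouts, against 2.07% of all genes in that direction. Among the FGF response genes of the list, log2 fold changes were positive for Spry4 (0.17), Spred2 (0.09), Etv4 (0.08), Etv1 (0.06), Spry2 (0.03) and Etv5 (0.03). They were negative for Dusp6 (-0.01), Spred1 (-0.04) and Spry1 (-0.04). The receptor gene Fgfr3 had 98.4 ± 1.97 and 89.7 ± 5.04 CPM, with lower values in each labelled knockout than in each wildtype library. Its groups overlapped, though, with upper quartile factors and on the library total alone.

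**Figure D5:**
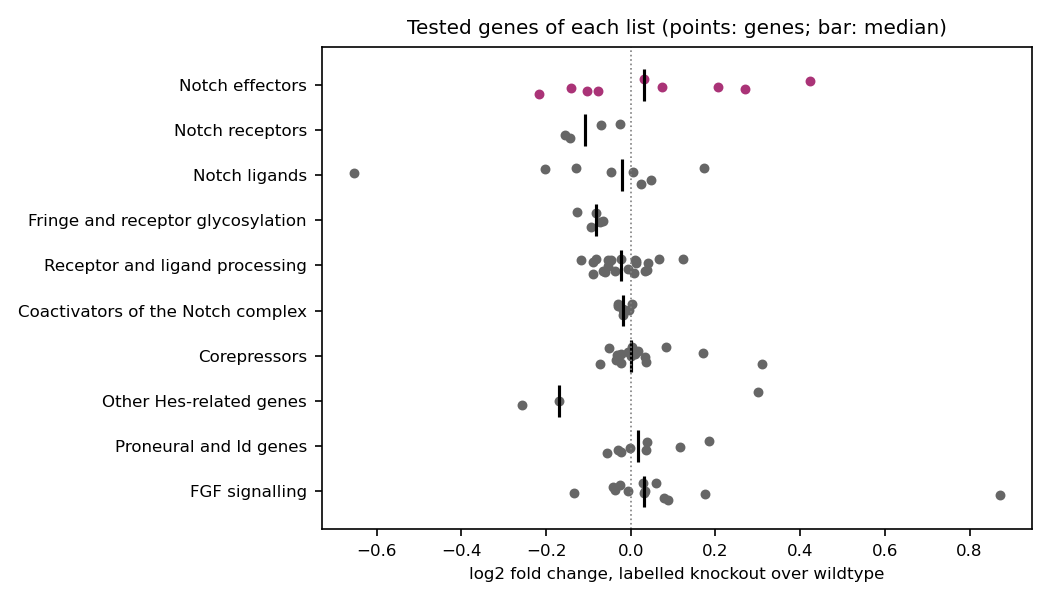
Log2 fold change of each tested gene (points), labelled knockouts over wildtype, by list, with the median of each list as a black bar and the Notch effectors in purple. The medians lie between -0.17 and 0.03, and the point farthest to the right is Fgf20 at 0.87.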

How the data were processed

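Raw counts, whole numbers for every gene and library, were deposited by the authors, per the file headers. According to the submitters' processing notes, the tools were HISAT2 2.2.1, cutadapt 4.3, FastQC 0.12.1, featureCounts and DESeq2, and the build was GRCm39. For annotation, strand setting and multi-mapped reads, the settings were not given in the sources used here. Per the labels' protocols, RNA was purified on RNeasy columns and NEBNext Ultra II was used for library preparation. Library names in the labels tied each column to its sample. The authors also deposited, per the file headers, a DESeq2 table with a mean of normalized counts (a signal), log2 fold changes with standard errors, a test score, p-values and adjusted p-values. Its direction is not stated and matches knockout over wildtype: a rerun of DESeq2 1.42.0 on the counts gave log2 fold changes differing by over 0.01 in 0 genes. The deposited group means and SDs of counts were not used.

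Genes were kept with filterByExpr of edgeR 4.0.16 (R 4.3.3, minimum count 10) and libraries scaled by TMM, which the CPM values use. The test was edgeR's quasi-likelihood test with genotype as the single factor, with Benjamini-Hochberg adjustment over all tested genes and a threshold of 0.05. SEs are the log2 fold change over the root of the F statistic, and 95% intervals use the degrees of freedom of the fit. Ratios within libraries were compared by two-sided exact permutation tests over 70 assignments. Alternatives included limma-voom (limma 3.58.1) and the others named in the closing section. The test was tried on simulated counts with known changes, drawn without the shifts in noncoding share, stria score or Y-linked genes. The outcome of that trial is not given here. Gene classes came from RefSeq of GRCm38.p6 (94.7% of tested genes matched by symbol), exon lengths and neighbours from GENCODE M21. The members, lists, tests and alternatives were chosen with earlier results of these data known. The genes named are the 9 members, Prox1, Emx2, from each list the genes past the threshold or else the one with the smallest p, neighbours of members, and the 3 genes of a mean log2 CPM of at least 2 with the profile closest to each member that varied enough; other genes named were chosen after their values were seen. Within each group, every 2 libraries differed by more than sampling noise (chi-square per degree of freedom of at least 9.85).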

Additional observations from a re-analysis of the deposited data

How the results depend on the processing

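Of 180 values of the 9 genes under 20 alternative fits, 173 kept their direction and their side of the threshold. The 4 that newly passed were Hey2 without the filter, among protein-coding genes alone and with DESeq2, and Rbpj with DESeq2. The 3 that changed sign were Maml2 with the noncoding share as a covariate (-0.042) and Hes1 without labelled knockout 4 (-0.052) and without wildtype libraries 1 and 3 (-0.0045). With 1 library left out Hes1 ran from -0.052 to 0.071. The number of members called, 0 of 9, became 1 without the filter, 1 among protein-coding genes alone, 1 at an adjusted p threshold of 0.1 and 2 with DESeq2. It stayed 0 with RLE or upper quartile factors, the stricter filter (50 counts in 4 or more libraries), limma-voom, the covariates, the threshold of 0.01 and each library left out. All genes called were 19 (7 higher, 12 lower), and 36 without the filter (12 higher, 24 lower), 86 with DESeq2 (36 higher, 50 lower), 5 with the score of Y-linked genes (0 higher, 5 lower), 8 with the stria score (1 higher, 7 lower), 10 at a threshold of 0.01, 9 without wildtype libraries 1 and 3, and between 11 and 27 with 1 library left out. The cause of these shifts was not tested. The difference in the log2 ratio of Hes1 to Hes6, -0.05, ran from -0.14 to 0.027 with 1 library left out.

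With the replicate number as a block, 15 genes and none of the 9 were called, and Hey2 had 0.42 (edgeR adjusted p = 0.231). The samples share only a number: deviations of same-numbered libraries correlated across genes at 0.19, 0.32, -0.40 and -0.21. The depth leaves each of the 9 genes with at least 464 counts per library, and 4 libraries a group limit the precision further. The scalings under which overlap of the groups was examined, beside TMM, were chosen after seeing the data.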

Other observations

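Other genes of the Hes family were close to absent. Over all 8 libraries Hes2 had 4 counts, Hes3 18 and Hes7 70, between 5 and 12 per library, and Helt 17. These genes were not tested. Among the proneural genes that Hes proteins repress elsewhere, Neurog1 had no count and Neurod1 64 counts in all, while Atoh1 passed the filter. Rbpjl, the paralog of Rbpj, had 3.16 ± 0.70 CPM in wildtype against 3.90 ± 0.23 CPM in the labelled knockouts (SD, n = 4 per group). Its log2 fold change of 0.30 did not pass (edgeR adjusted p = 0.652).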
